A study of Homo sapiens with 8 samples.

Results

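The S100 calcium-binding proteins were described in Panc 10.05, a cell line from a human pancreatic ductal adenocarcinoma, in control cells and in cells carrying an ELAPOR1 transgene. The members were the 10 genes whose symbols are S100A2, S100A3, S100A4, S100A6, S100A10, S100A11, S100A13, S100A14, S100A16 and S100P, taken by symbol from a table of 58870 genes. RNA sequencing gave 8 libraries, 4 of control cells and 4 of cells labelled as overexpressing ELAPOR1, an endosome-lysosome associated transmembrane protein, and the study's title places them in a question about tumour subtype and metabolism. The labels give no vector or promoter for the transgene, no clone or pool, no drug or time point, no batch and no date, and they do not say what the control cells received. They also do not say that the replicates were separate cultures, so the p-values measure only the spread between these libraries, which may be technical.

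S100 proteins are small proteins that fold around a pair of calcium-binding helix-loop-helix motifs (EF-hands) and mostly work as dimers. Calcium binding exposes a surface that grips a target such as an annexin, myosin or p53, and some family members are also secreted and bind receptors such as RAGE at the cell surface. Several of them, among them S100A4, S100A6, S100A11, S100A14 and S100P, are studied in pancreatic cancer, where S100P and S100A6 are known as markers of transformed ductal epithelium.

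The calcium-binding loop itself shows how the members differ, so the coding sequence of the loop in the second, C-terminal EF-hand is given for each of them. The sequences were read 5′ to 3′ from GENCODE 29 transcripts on GRCh38, on the coding strand. Each has 36 bases for 12 residues, and capitals mark the codons of loop positions 1 and 12, which usually carry aspartate and glutamate that hold the calcium ion.
S100A2: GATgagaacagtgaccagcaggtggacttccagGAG
S100A3: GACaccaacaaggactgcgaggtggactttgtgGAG
S100A4: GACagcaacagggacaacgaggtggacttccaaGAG
S100A6: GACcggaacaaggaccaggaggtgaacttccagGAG
S100A10: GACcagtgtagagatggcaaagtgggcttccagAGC
S100A11: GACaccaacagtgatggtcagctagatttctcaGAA
S100A13: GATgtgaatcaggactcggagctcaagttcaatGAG
S100A14: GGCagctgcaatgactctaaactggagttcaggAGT
S100A16: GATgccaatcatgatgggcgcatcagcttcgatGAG
S100P: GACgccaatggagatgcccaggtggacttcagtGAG

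Of the 10 loops, 8 have an aspartate codon at position 1 and a glutamate codon at position 12. S100A10, known for holding its active shape without calcium, has a serine codon at position 12. S100A14 has a glycine codon at position 1 and a serine codon at position 12. The encoded proteins are 90 to 105 residues long. The most alike of the pairs is S100A2 and S100A4, with 60.8% of aligned residues identical, and the least alike is S100A3 and S100A14, with 23.3%.

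Values after ± are SDs over the 4 libraries of a group (n = 4) throughout. The libraries held 16558600 to 18128757 estimated counts in the control group and 13765509 to 17258166 in the ELAPOR1 group. ELAPOR1 itself had 1 to 4 counts in each control library and 5910 to 7368 in each library of the transgene group, which matched the labels. All 6 markers of ductal epithelium were measured (EPCAM, KRT7, KRT8, KRT18, KRT19 and CDH1), with a summed level of 11929 to 13196 CPM (counts per 1000000, scaled between libraries by TMM) in control and 11159 to 11510 in ELAPOR1 libraries. Within this sum KRT8 and KRT18 were called lower (log2 fold changes of -0.16 and -0.36), KRT7, KRT19 and CDH1 were called higher (0.31, 0.25 and 0.11) and EPCAM was not called. Of the fibroblast markers COL1A2, DCN and LUM were at 0 in every library, and the 6 summed to 2.95 to 4.32 CPM in control and 2.71 to 3.19 in ELAPOR1. CDH5 was at 0 among 5 endothelial markers, which summed to 1.65 to 2.13 CPM and 0.576 to 0.998 CPM. CD3E was at 0 among 8 immune markers, which summed to 89.0 to 96.1 CPM and 81.1 to 87.8 CPM, mostly from the lysosomal gene CD68.

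In these cells 9 of the 10 S100 genes were detected. S100A2 (2.10-fold) and S100A3 (1.45-fold) rose, both from low levels, while S100A14, S100A13 and S100A16 fell. The abundant members S100A6, S100A10 and S100A11 did not pass the test, and neither did S100A4. The 9 detected members were all tested, and 5 of them were called at an adjusted p under 0.05 by edgeR's quasi-likelihood test. That is 55.6% of the tested members, beside 44.7% of all 13860 genes tested. The count was 2 members higher, beside 22.6% of all genes called higher, and 3 lower, beside 22.1% of all genes called lower. Levels of the groups did not overlap for 3 of 9 members (S100A2, S100A3 and S100A14), beside 39.2% of all tested genes. The median log2 fold change of the tested members was 0.04 and the median of its absolute size was 0.18; over all tested genes these were 0.00087 and 0.18. These shares lie near those of all genes. Because the RNA came from whole cultures, fewer cells that make a transcript and less of it per cell cannot be told apart.

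The split of the calls depended on the scaling. With total counts in place of TMM scaling, 3 members were called higher (S100A11 joined them) and 2 lower (S100A16 was no longer called). After each library's trends with GC content and length had been fitted and removed, 5 were called higher (S100A6, S100A10 and S100A11 joined) and 2 lower (S100A13 and S100A14). All 9 detected members have short transcripts, with a median longest transcript of 998 bases against 3456 over the tested genes.

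**Figure D1:**
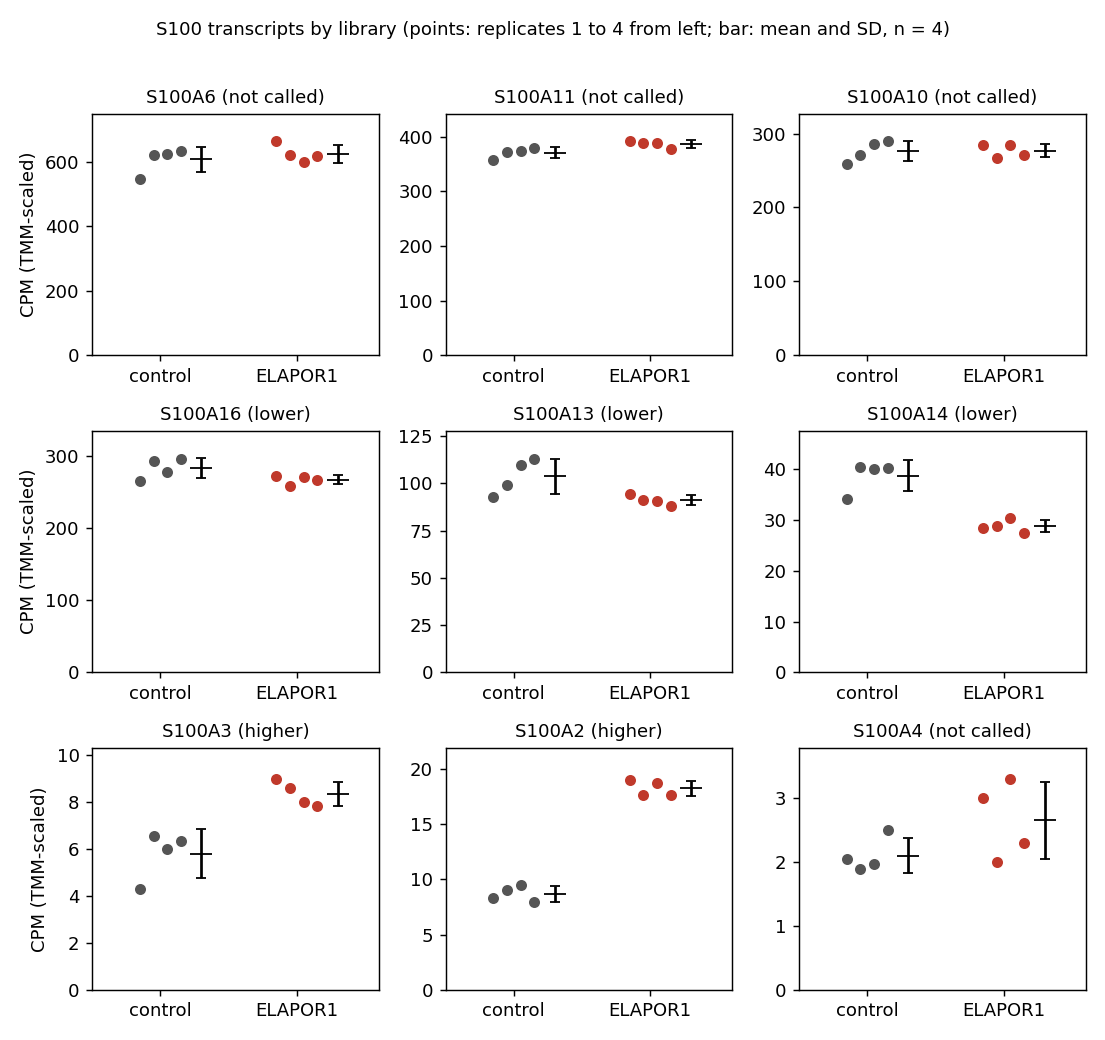
TMM-scaled CPM (y axis, from 0) of the 9 detected S100 genes in the 4 control (grey) and 4 ELAPOR1 (red) libraries; points are libraries and the bar is the mean with SD (n = 4). S100A2, S100A3 and S100A14 show no overlap between the groups, and control replicate 1 is the lowest control library for 7 of the 9 genes.

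S100A2, a nuclear family member known to bind p53 and used as a marker of basal and squamous epithelium, showed the largest relative change in the family. Its gene (ENSG00000196754.10) lies on the minus strand at chr1:153561108-153567890. The control libraries gave 8.32, 9.09, 9.47 and 7.93 CPM and the ELAPOR1 libraries 19.0, 17.7, 18.7 and 17.7 CPM. Every ELAPOR1 library was above every control library, and the libraries within each group lay close together. The mean rose from 8.70 ± 0.704 to 18.3 ± 0.703 CPM. The log2 fold change was 1.07 (SE 0.0888, 95% interval 0.90 to 1.24, edgeR adjusted p = 5.5e-12), a 2.10-fold rise. These levels rest on 130 to 158 counts in each control library and 260 to 310 in each ELAPOR1 library. S100A2 was called under all 21 settings tried, with a log2 fold change between 1.03 and 1.16.

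S100A3, a cysteine-rich zinc and calcium binder best known from hair cuticle, is encoded beside S100A2 and rose as well. Its gene (ENSG00000188015.10, chr1:153547329-153549372, minus strand) gave 4.27, 6.55, 5.99 and 6.34 CPM in control and 8.96, 8.58, 7.99 and 7.84 CPM in ELAPOR1 libraries. The groups did not overlap, and control replicate 1 lay below the other control libraries. The mean went from 5.79 ± 1.04 to 8.34 ± 0.520 CPM, which is 0.53 on the log2 scale (SE 0.130, interval 0.28 to 0.79, edgeR adjusted p = 0.0011). Without control replicate 1 it was 0.40 (edgeR adjusted p = 0.0084).

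S100A4, a binder of non-muscle myosin linked to cell motility and metastasis, was scarce in this line. The gene (ENSG00000196154.12, chr1:153543613-153550136, minus strand) gave 2.05, 1.89, 1.98 and 2.50 CPM in control and 3.01, 1.996, 3.31 and 2.31 CPM in ELAPOR1 libraries. Most ELAPOR1 libraries were above most controls, but the groups overlapped. The log2 fold change of 0.33 (SE 0.220, interval -0.10 to 0.76) did not pass the test (edgeR adjusted p = 0.231). Each library held 30 to 49 counts of it. Leaving out 1 library moved the log2 fold change between 0.22 (without ELAPOR1 replicate 3) and 0.44 (without ELAPOR1 replicate 2), and it was not called in either case. The span of S100A4 overlaps that of S100A3 on the same strand, so reads from the overlap could have been assigned to either gene. The estimated counts of both genes were whole in every library, and whether reads were shared between them was not tested.

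S100A14, a mostly epithelial member that lacks several of the usual calcium ligands, showed the largest relative fall. The gene (ENSG00000189334.9, chr1:153614255-153616986, minus strand) gave 34.2, 40.4, 40.1 and 40.3 CPM in control libraries and 28.5, 28.8, 30.5 and 27.5 CPM in ELAPOR1 libraries. All ELAPOR1 libraries were below all control libraries, although control replicate 1 stood apart from the other controls on the side of the ELAPOR1 group. The mean fell from 38.8 ± 3.04 to 28.8 ± 1.22 CPM, with a log2 fold change of -0.43 (SE 0.0628, interval -0.55 to -0.31, edgeR adjusted p = 8.5e-07). Without control replicate 1 the log2 fold change was -0.49.

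S100A13 is a copper-binding member that takes part in the release of FGF1 and IL-1 alpha, which lack a signal peptide. The gene (ENSG00000189171.14, chr1:153618787-153631360, minus strand) gave 93.0, 99.2, 110 and 113 CPM in control and 94.5, 91.3, 90.8 and 88.2 CPM in ELAPOR1 libraries. The groups overlapped through control replicate 1, which lay within the ELAPOR1 range. The mean fell from 104 ± 9.25 to 91.2 ± 2.57 CPM, with a log2 fold change of -0.18 (SE 0.0487, interval -0.28 to -0.09, edgeR adjusted p = 0.0028). Its span overlaps S100A1 on the opposite strand and AL162258.1 on its own, and it was the 1 member whose estimated counts were not all whole.

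S100A16, a widely expressed member whose gene (ENSG00000188643.11) lies at chr1:153606886-153613145 on the minus strand, changed least among the called members. Control libraries gave 265, 294, 277 and 295 CPM and ELAPOR1 libraries 273, 258, 270.1 and 266 CPM. The lowest control library lay inside the ELAPOR1 range. The log2 fold change was -0.08 (SE 0.0333, interval -0.15 to -0.02, edgeR adjusted p = 0.038). The call was lost without control replicate 2 or 4 and without ELAPOR1 replicate 2, 3 or 4, with edgeR adjusted p between 0.0558 and 0.156. It was also lost with total counts (edgeR adjusted p = 0.121). After removal of the GC and length trends S100A16 had the opposite sign, 0.0094, and was not called.

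S100A6 (calcyclin), a growth-associated member that binds the ubiquitin ligase adaptor CACYBP, had the highest level in the family. The gene (ENSG00000197956.10, chr1:153534599-153536244, minus strand) gave 549, 623, 626 and 635 CPM in control and 665, 621, 599 and 620 CPM in ELAPOR1 libraries. The groups overlapped widely, with control replicate 1 as the single low library and ELAPOR1 replicate 1 as the highest. The log2 fold change was 0.04 (SE 0.0428, interval -0.04 to 0.13, edgeR adjusted p = 0.458), and it was -0.0099 without control replicate 1. After removal of the GC and length trends it was 0.20 and called (edgeR adjusted p = 6.7e-08). The span of S100A6 overlaps the antisense gene BX470102.1, and no source used here says whether strand was used in counting.

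S100A10 (p11) forms a heterotetramer with annexin A2 and brings plasminogen to the cell surface. The gene (ENSG00000197747.9, chr1:151982915-151994390, minus strand) gave 259, 271, 286 and 290 CPM in control and 285, 268, 284 and 271 CPM in ELAPOR1 libraries. The ELAPOR1 libraries all lay within the control range. The log2 fold change was 0.0030 (SE 0.0342, interval -0.06 to 0.07, edgeR adjusted p = 0.955). With the GC and length trends removed it was 0.09 and called (edgeR adjusted p = 0.0037).

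S100A11 (calgizzarin), which pairs with annexin A1 and takes part in membrane repair, was the second most abundant member. The gene (ENSG00000163191.6, chr1:152032506-152047907, minus strand) gave 357, 372, 374 and 380 CPM in control and 392.1, 388, 389 and 377 CPM in ELAPOR1 libraries. Most ELAPOR1 libraries were above all controls, and ELAPOR1 replicate 4 lay inside the control range. The log2 fold change of 0.06 (SE 0.0291, interval 0.0036 to 0.12) did not pass the test (edgeR adjusted p = 0.0896). It was called without control replicate 4 (0.07, edgeR adjusted p = 0.0346), with total counts (0.08, edgeR adjusted p = 0.0198) and with the GC and length trends removed (0.20, edgeR adjusted p = 1.3e-09). Its span overlaps the antisense gene AL450992.1.

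S100P (ENSG00000163993.7, chr4:6693069-6697170, plus strand), a RAGE and ezrin ligand and the only member outside chromosome 1, had 0 counts in all 8 libraries. A count of 0 allows up to 3 counts over a group, which is 0.0437 CPM in control and 0.0483 CPM in ELAPOR1, for counting error only. S100P was not tested, and its level gives no fold change.

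**Figure D2:**
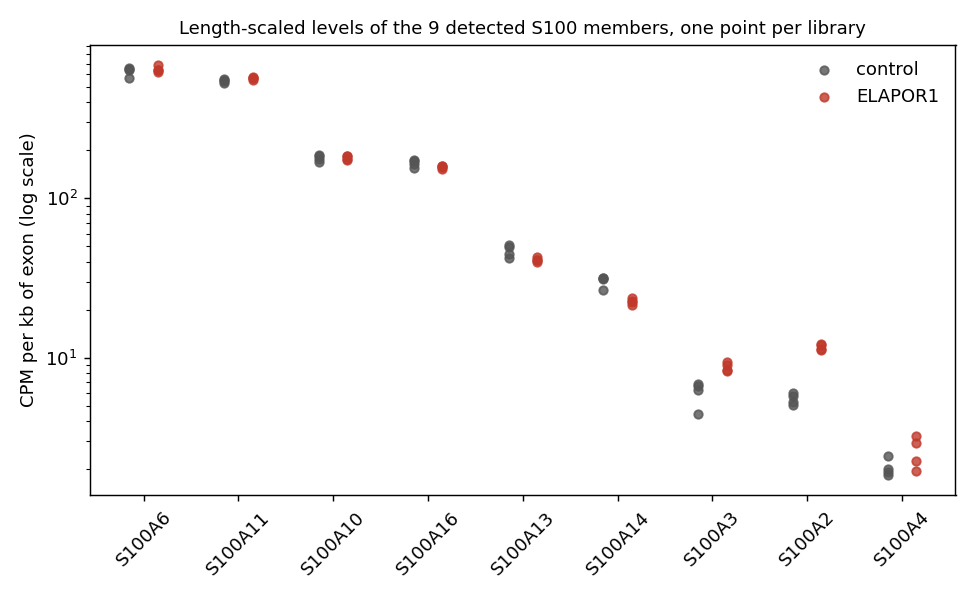
CPM per kilobase of exon (log axis) of the 9 detected S100 genes, one point per library, control in grey and ELAPOR1 in red, ordered by the control mean. S100A6 and S100A11 are highest, between 525 and 684, S100A4 is lowest, between 1.84 and 3.23, and S100A2 changes place with S100A3 between the groups.

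Levels of different genes were compared as CPM per kilobase of exon. On this scale the control means ran from S100A6 (626 ± 41.3) and S100A11 (545 ± 14.4) through S100A10 (179 ± 9.16), S100A16 (166 ± 8.29), S100A13 (46.8 ± 4.17) and S100A14 (30.3 ± 2.38) to S100A3 (6.06 ± 1.09), S100A2 (5.55 ± 0.450) and S100A4 (2.05 ± 0.265). In control libraries the ranges of S100A10 and S100A16 overlapped, as did those of S100A3 and S100A2, so these neighbours were not separated. In ELAPOR1 libraries no neighbours overlapped, and S100A2 (11.3 to 12.1) lay above S100A3 (8.21 to 9.38). The order depends on the length used: with the longest transcript, S100A16 (247) was above S100A10 (230) and S100A2 (8.72) above S100A3 (6.76) in control.

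Summed over the members, the length-scaled level was 1608 ± 77.8 CPM per kilobase in control and 1636 ± 40.0 in ELAPOR1 libraries. The difference on the log2 scale was 0.03, and a two-sided exact permutation test gave p = 0.657. S100A6 and S100A11 made up most of this sum in both groups, with shares of 38.9% and 33.9% in control and 39.4% and 34.7% in ELAPOR1. The share of S100A2 went from 0.346% to 0.713%, and that of S100A14 from 1.89% to 1.38%. The shares of 5 members did not overlap between the groups (S100A2, S100A3, S100A13, S100A14 and S100A16). Such shares have no counterpart over all genes. In CPM only 3 of 9 members did not overlap, beside 39.2% of all tested genes, and S100A13 and S100A16 did overlap. The sum that divides the shares was lowest in control replicate 1 (1494 CPM per kilobase, with the other controls at 1627 to 1671). Each of the 5 shares gave an exact permutation p of 0.0286, two-sided, the smallest that 4 against 4 libraries allow. After adjustment over 9 members it was 0.0514, so 0 passed.

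**Figure D3:**
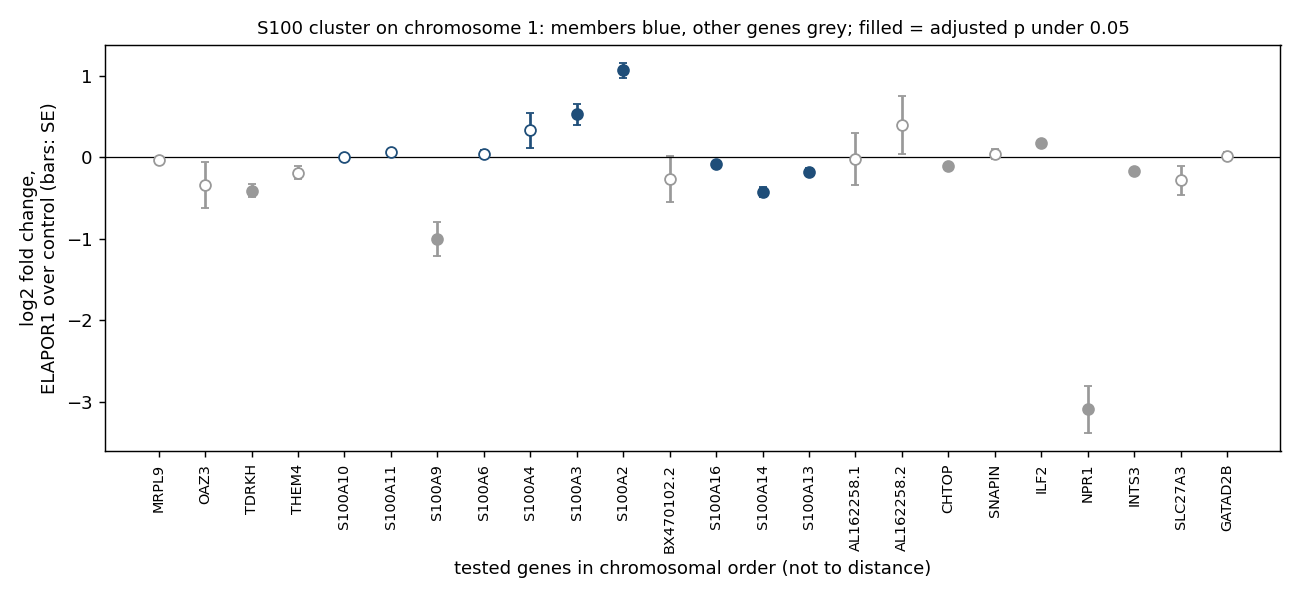
Log2 fold change (ELAPOR1 over control, bars are SE) of tested genes along the chromosome 1 cluster and 250 kb on either side, in chromosomal order and not to distance; members blue, other genes grey, filled where the edgeR adjusted p is under 0.05. S100A3 and S100A2 are higher side by side, S100A16, S100A14 and S100A13 are lower side by side, and NPR1 has the lowest value at -3.10.

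The 9 detected members lie within 1648 kb of chromosome 1, and their order along it is given as a description, since clustering of the calls was not tested. In chromosomal order S100A10, S100A11, S100A6 and S100A4 were not called, S100A3 and S100A2 were higher, and S100A16, S100A14 and S100A13 were lower. S100A9, which is no member and was called lower, lies between S100A11 and S100A6. With GC and length trends removed the order was different: S100A10, S100A11 and S100A6 were called higher, and S100A16, at 0.0094, was not called. Together with 250 kb on either side, this stretch holds 16 other genes that were tested. Of these 7 were called, 1 higher and 6 lower, beside 44.7% of all tested genes called, 22.6% higher and 22.1% lower. The median log2 fold change of the 16 was -0.18. ILF2, which encodes NF45, the partner of the RNA-binding protein NF90, was the 1 that rose (log2 fold change 0.17, edgeR adjusted p = 1.9e-05). NPR1, the receptor of atrial natriuretic peptide, fell from 3.48 ± 0.388 to 0.403 ± 0.113 CPM (-3.10 in log2 units with an SE of 0.287, edgeR adjusted p = 7.2e-11). TDRKH, INTS3 and CHTOP fell by 0.41, 0.17 and 0.11 on the log2 scale. The CHTOP call was lost without control replicate 2, without ELAPOR1 replicate 3 or 4 and with total counts (edgeR adjusted p from 0.0651 to 0.186). The other 9 tested genes (MRPL9, OAZ3, THEM4, BX470102.2, AL162258.1, AL162258.2, SNAPIN, SLC27A3 and GATAD2B) were not called.

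S100A9, a subunit of calprotectin and the 1 S100 gene outside the members that could be tested, also lies in this stretch. Control libraries gave 3.16, 2.95, 3.72 and 4.82 CPM and ELAPOR1 libraries 2.15, 1.80, 1.80 and 1.56 CPM, from 25 to 79 counts each. All ELAPOR1 libraries were below all control libraries. The mean fell from 3.66 ± 0.835 to 1.83 ± 0.243 CPM (-0.999 in log2 units with an SE of 0.210, edgeR adjusted p = 2.0e-04). Its partner S100A8 was at 0 in every library, as were S100A7, S100A7A, S100A7L2, S100A12, S100B, S100G and S100Z. S100A1 had 0 counts in control and 10 in ELAPOR1 libraries in all, and S100A5 had 5 and 3; neither was tested. Of 7 fused S100 genes of the skin barrier, 4 were at 0 (FLG2, HRNR, RPTN and CRNN), and FLG, TCHH and TCHHL1 had at most 7 counts summed over a group.

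Promoter windows of the members were read from RefSeq (GRCh38.p14), 14 windows for the 10 genes, each of 250 bases before a start site. The AP-1 motif TGANTCA, searched on both strands, was found in 2 of the 14, and in 6.57% of all 35116 such windows. Those 2 windows belong to S100A2 and S100A3, the members that were called higher. Among the motifs searched, AP-1 was picked for display because of those calls, so their coincidence is no test. For each match 100 bases are shown, taken from the part of the window outside annotated exons. Capitals mark the match. S100A2 is shown at chr1:153565866-153565965 and S100A3 at chr1:153549409-153549508, both minus strand.
S100A2: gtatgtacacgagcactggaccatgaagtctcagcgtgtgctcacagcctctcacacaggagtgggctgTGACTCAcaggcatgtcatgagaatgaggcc
S100A3: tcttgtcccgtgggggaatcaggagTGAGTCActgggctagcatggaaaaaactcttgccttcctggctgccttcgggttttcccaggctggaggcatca

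The match begins 52 bases before the start site in S100A2 and 225 bases before it in S100A3. S100A2 has a second window without a match. Of the other motifs, a loose NF-kappaB pattern was found in 11 of the 14 windows and in 54.4% of all windows. Only the G bases at its start and the C bases at its end were fixed, and any base was allowed between them. Neither figure is therefore a share of windows with an NF-kappaB site. An E-box (CANNTG) was found in 10 of 14 and 61.8%, and a GC box (GGGCGG) in 6 of 14 and 42.6%. A TATA box (TATAAA) was found in 3 of 14 (S100A4, S100A13 and S100P) and in 10.7% of all windows. The interferon-stimulated response element was in no member window and in 3.02% of all. A match is a run of letters and not a measured binding site, and whether AP-1 bears on the levels was not tested.

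**Figure D4:**
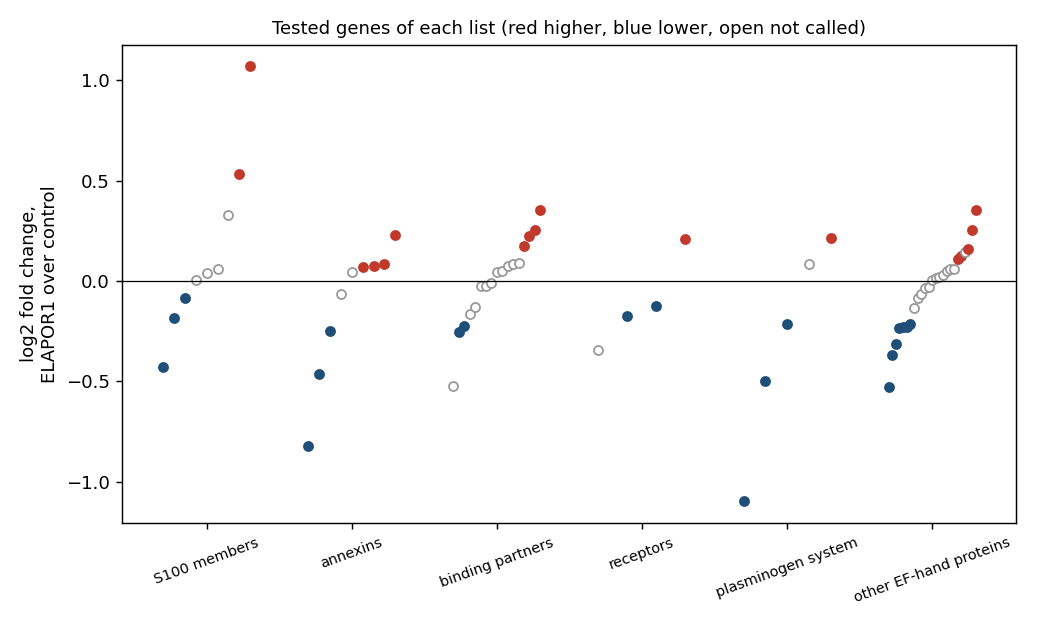
Log2 fold change (ELAPOR1 over control) of tested genes of the S100 members and 5 lists of linked genes, sorted within a list; red is called higher, blue called lower and open not called. S100A2 is the highest point at 1.07 and PLAT of the plasminogen system the lowest at -1.10.

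Genes that S100 proteins work with were taken as lists: annexins, intracellular binding partners, receptors, the plasminogen system and other EF-hand proteins. The counts called in each list stand beside 44.7% of all tested genes called, 22.6% higher and 22.1% lower. Of 13 annexins, 9 were tested, 4 were higher and 3 lower, with a median log2 fold change of 0.05. ANXA6 fell from 5.81 to 3.28 CPM (log2 fold change -0.82, edgeR adjusted p = 2.5e-05), ANXA9 from 26.2 to 19.0 CPM (-0.46) and ANXA3 from 324 to 272 CPM (-0.25). ANXA5, the phosphatidylserine binder, rose from 81.5 to 95.6 CPM (0.23, edgeR adjusted p = 1.4e-05). ANXA2, the partner of S100A10, went from 2589 to 2715 CPM (0.07, edgeR adjusted p = 0.027), and ANXA1, the partner of S100A11, from 567 to 597 CPM (0.07, edgeR adjusted p = 0.028). The ANXA1 call was lost without control replicate 2 and without ELAPOR1 replicate 1, 2 or 3 (edgeR adjusted p from 0.064 to 0.114). The ANXA2 call was lost without control replicate 2 or 3 and without ELAPOR1 replicate 1, 2 or 4 (edgeR adjusted p from 0.0673 to 0.0853). Both were also lost with upper-quartile scaling and with no low-count filter. With the GC and length trends removed the ANXA2 call was lost as well (0.04, edgeR adjusted p = 0.0965), whereas S100A10 was called higher there (0.09, edgeR adjusted p = 0.0037).

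Among 18 binding partners, 17 were tested, with 4 higher and 2 lower and a median log2 fold change of 0.04. MYH9, the heavy chain of non-muscle myosin IIA and a target of S100A4, rose from 800 ± 24.1 to 1022 ± 26.6 CPM (log2 fold change 0.35, edgeR adjusted p = 1.8e-12). The other non-muscle myosin heavy chains of the list did not rise with it. MYH14 fell from 121 to 104 CPM (log2 fold change -0.22, edgeR adjusted p = 5.9e-06), and MYH10, at 17.9 and 18.9 CPM, was not called (edgeR adjusted p = 0.453). The scaffold IQGAP1 rose by 0.25 and nucleolin (NCL) by 0.23, EZR, the partner of S100P, rose by 0.17, and MDM2, the ubiquitin ligase of p53, fell by 0.26. CACYBP was at 181 and 187 CPM and did not pass the test (edgeR adjusted p = 0.252).

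Of 7 receptors, 6 were found in the table and 4 tested, with 1 higher and 2 lower. BSG (CD147) rose from 370 to 428 CPM (0.21), ALCAM fell from 483 to 428 CPM (-0.18) and NPTN, a binder of S100A9, from 124 to 114 CPM (-0.13, edgeR adjusted p = 0.0065). AGER, which encodes RAGE, was at 3.24 and 2.54 CPM and did not pass the test (log2 fold change -0.34, edgeR adjusted p = 0.186).

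S100A10 serves the plasminogen system as a surface receptor. Of 9 genes 6 were tested, with 2 higher and 3 lower. PLAT, the tissue activator, fell by 1.10 on the log2 scale, from 7.66 ± 0.703 to 3.58 ± 0.272 CPM, with an edgeR adjusted p of 4.1e-08. PLAU, the urokinase activator, fell by 0.50, from 1550 ± 29.7 to 1097 ± 8.05 CPM, with an edgeR adjusted p of 2.5e-17. ENO1, a surface plasminogen binder beside its role in glycolysis, rose by 0.22, and PLG itself was at 0 in every library.

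Other EF-hand proteins served as a comparison for calcium binding outside the family. Of 29 genes 25 were tested, with 5 higher and 7 lower and a median log2 fold change of 0.0069. NUCB2 fell by 0.53, the endoplasmic reticulum protein RCN1 by 0.37 and sorcin (SRI) by 0.31, and the actin cross-linker ACTN4 rose by 0.35. Over these lists and the S100 genes outside the members, 34 of 62 tested genes were called, 16 higher and 18 lower, beside 44.7% of all tested genes called, 22.6% higher and 22.1% lower.

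The balance between a member and its partner was read as the log2 ratio of their CPM in each library, with 1 CPM added to both. For S100A16 and S100A14, which are reported to bind each other, the ratio was 2.92, 2.83, 2.76 and 2.84 in control and 3.21, 3.12, 3.11 and 3.23 in ELAPOR1 libraries. All ELAPOR1 libraries were above all controls, a difference of 0.33 that gave an exact permutation p of 0.0286 (two-sided) and 0.143 after adjustment over the 5 pairs tested. The ratio of S100A10 to ANXA2 differed by -0.07 (exact permutation p = 0.143, adjusted 0.357) and that of S100A11 to ANXA1 by -0.01 (exact permutation p = 0.429, adjusted 0.571). The ratio of S100A4 to MYH9 differed by -0.13 (exact permutation p = 0.457, adjusted 0.571), from -0.224 without ELAPOR1 replicate 3 to -0.024 without ELAPOR1 replicate 2. That of S100A6 to CACYBP differed by -0.0041 (exact permutation p = 0.886). After adjustment 0 of the 5 pairs passed, and S100P with EZR could not be read because S100P was at 0.

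**Figure D5:**
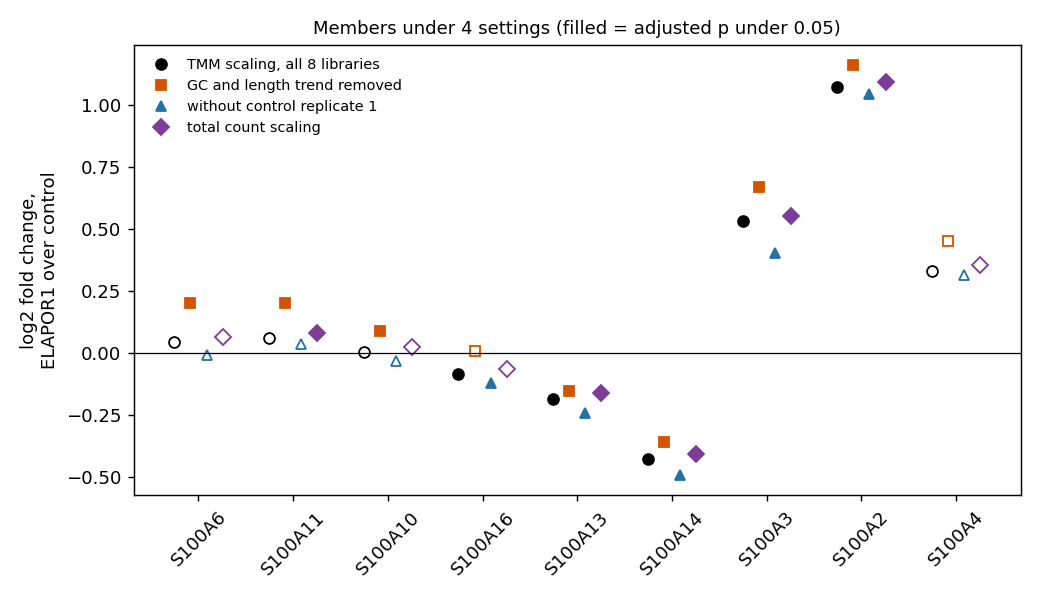
Log2 fold change (ELAPOR1 over control) of the 9 detected S100 genes with TMM scaling (black circles), GC and length trends removed (orange squares), control replicate 1 left out (blue triangles) and total count scaling (purple diamonds); filled where the edgeR adjusted p is under 0.05. S100A2, S100A3, S100A13 and S100A14 are filled and keep their sign under all 4, whereas S100A6, S100A10, S100A11 and S100A16 cross the threshold or 0.

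Within the groups, the genes whose levels moved most like S100A2 were ADIPOR1 (r = 0.993), HMGB1 (r = 0.978) and LZIC (r = 0.970). These are Pearson correlations of deviations from the group means in log2 CPM over 8 libraries, given as a description, and 39 tested genes reached 0.9 or more. All 3 correlations come from the same 8 libraries and are the highest among all tested genes outside the members. How many genes would reach 0.9 by chance was not tested, so no link of these 3 genes to S100A2 is read from the correlations.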

How the data were processed

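RNA sequencing libraries of Panc 10.05 (4 control, 4 ELAPOR1) were grouped by their labels. The authors made and deposited a table of expected counts per gene, which are estimated counts as RSEM gives them, with no scaling between libraries. The submitters' processing notes name cutadapt, STAR, RSEM and DESeq2 and the build hg38, with no versions or order; the annotation used and whether strand was read are not given in the sources used here. Of the nonzero values 15% were not whole. Coordinates, overlaps and lengths are from GENCODE 29 (GRCh38), which held 58597 of the 58870 gene identifiers without their version.

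Before testing, the expected counts were rounded. The test was that of edgeR 4.0.16 under R 4.3.3 (filterByExpr, TMM, robust quasi-likelihood F test, two-sided), with Benjamini-Hochberg adjustment over 13860 genes and a call at an adjusted p under 0.05. Intervals are 1.96 SE on either side. CPM are per 1000000 TMM-scaled counts. Single values were compared by two-sided exact permutation tests, which cannot go below 0.0286. No 2 libraries of a group were as alike as sampling noise (chi-square per degree of freedom 1.93 to 6.10). Alternatives used DESeq2 1.42.0, limma 3.58.1 (voom), 3 other scalings, other filters, a replicate block, left-out libraries, ELAPOR1 left out, a test against a 1.5-fold change, an adjusted p under 0.01 and removal of GC and length trends (splines with 5 degrees of freedom). On simulated data for 13860 genes, 96.8% of 62 genes changed 2-fold were called, with 7 false calls. Every simulated gene had the same spread between replicates beyond counting noise, and only 200 were changed, against 6193 called here. These figures are therefore not error rates for the real libraries.

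The members and lists were chosen with earlier results of these data known. Named genes were all members, other S100 genes with counts, ELAPOR1, at most 4 called genes with the largest change in each list, pair partners, tested genes of the chromosome 1 window, and the 3 genes nearest to the most changed member. AGER, PLG, MYH10, MYH14 and the marker genes, and the S100 and fused S100 genes at low or 0 counts, were named beside these. AGER, PLG, MYH10 and MYH14 were named after their values were seen. MCAM was not analysed here. A few genes that this rule names are not reported here or drawn in the plots.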

Additional observations from a re-analysis of the deposited data

Results flagged for a closer look

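In 26 groups of 4 libraries (the CPM of each detected member, S100A9 and ELAPOR1, the summed level of the members and the total counts), 3 had a library far from the other 3 (a gap to the nearest above the 95% critical value of the Dixon ratio), where chance gives about 1 in 20 groups, or 1.3. S100A6 was at 548.6 CPM in control replicate 1, with the other controls at 623 to 635. S100A14 was at 34.2 CPM in control replicate 1, with the others at 40.1 to 40.4. The summed level of the members was 1695 CPM per kilobase in ELAPOR1 replicate 1, with the others at 1607 to 1621. Control replicate 1 was the lowest control library for 7 of the 9 detected members, and the part of this in the results was not tested beyond leaving it out.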

How the results depend on the processing

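DESeq2's Wald test and limma-voom each called 5 members, 2 higher and 3 lower. Calls of S100A2 held under all 21 settings, and those of S100A3, S100A13 and S100A14 under all but the test against a 1.5-fold change. In that test 1 member was called (1 higher, 0 lower), with 2 genes of the linked lists and 215 of all genes. With GC and length trends removed 5 members were called higher and S100A16 had the opposite sign (0.0094). With upper-quartile scaling S100A10 was at -0.0055. Within 1 Mb on either side of the cluster 20 of 54 tested genes were called, against 7 of 16 within 250 kb and 44.7% of all tested genes. Leaving out each library in turn gave 4 to 5 members called (2 to 3 higher, 2 to 3 lower), 31 to 40 genes of the linked lists and 5557 to 6316 of all genes. The difference in the summed level then ran from -0.0083 to 0.05, S100A6 from -0.0099 to 0.064, S100A10 from -0.0328 to 0.0268 and the S100A6 to CACYBP ratio from -0.0432 to 0.0204; exact tests cannot go below 0.0571 there. The cause of these differences was not tested. A library held 130 to 310 counts of S100A2 and 30 to 49 of S100A4, and the part of depth in the calls was not tested.

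Deviations from the group means of libraries with the same replicate number correlated at only -0.0213 to 0.0326. The labels do not say whether such libraries were prepared together, and these correlations cannot tell. With the replicate number as a block 4 members were called (2 higher, 2 lower), with S100A16 at -0.08 no longer called (edgeR adjusted p = 0.0718), ANXA1 and ANXA2 also lost, with 33 genes of the linked lists and 5926 of all genes.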
